A study of Mus musculus with 67 samples.

Results

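The genes of the cytosolic ribosomal proteins were followed in the cerebral cortex of C57BL/6 mice of 5 age classes, either with free access to feed (ad libitum, AL) or under caloric restriction (CR). Members were taken from probes that the platform annotation gives exactly 1 gene symbol, where that symbol starts with Rpl or Rps followed by a digit, p or a. The S6 kinase genes (Rps6k) and Rpl7l1 were left out, and 1 probe was kept per gene, the probe with the highest mean over all arrays. This gave 53 genes, 34 of the large and 19 of the small subunit, of 4209 named genes on the filter. The 53 genes had 96 probes in all, of 4875 probes with 1 symbol and 8448 probes in total. A further 21 probes carried several symbols, 1 of them Rpl or Rps, and were not used. The platform annotation gave all 53 members a gene number that matched the reference gene table, where they lie on 19 chromosomes, among them Rpl10, Rpl39 and Rps4x on the X.

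The cytosolic ribosome translates messenger RNA into protein, and it is built from a small subunit, which reads the message, and a large subunit, which joins the amino acids. Each subunit holds ribosomal RNA and a set of ribosomal proteins, and the proteins are made in matched amounts, in large part because their messenger RNAs are translated together. Their messages start with a C followed by a run of pyrimidines at the 5′ end, and through this tract growth and nutrient signals that pass through mTOR control how much of each message is read. In the brain, ribosomal proteins are made in neurons and glia alike and serve, beside growth, the local synthesis of protein in dendrites and axons.

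Total RNA of 67 mice, 1 mouse per array, was labelled with 33P-dCTP as cDNA and hybridised to mouse 17K cDNA filter B. AL mice received regular feed throughout: 5 of 17-21 days (2 males, 3 females), 5 of 33-44 days (3 males, 2 females), and 10 each (5 males, 5 females) of 6 months (169 to 194 days), 16 months (476 to 499 days) and 24 months (704 to 743 days). CR mice received full feed until 13 weeks of age, then fortified feed at 90% for 1 week and at 75% for 1 week, and 60% from then on. They comprised 9 mice of 6 months (4 males, 5 females; 174 to 194 days), 10 of 16 months (5 males, 5 females; 472 to 499 days) and 8 of 24 months (3 males, 5 females; 673 to 743 days). The 3 CR males of 24 months were all 673 days old, younger than every AL mouse of that age class. All mice were of 1 strain, and CR was measured at the 3 adult ages only.

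The deposited values are z scores: over all probes of an array their mean is 0 and their SD is 1. A difference of 0.3 is thus 0.3 SD of the probes of 1 array, which cannot be turned into a fold change, and a shift shared by all probes cannot be seen. Bulk tissue was measured, so fewer cells of a type and less RNA per cell cannot be told apart. The level of 1 probe was not compared with that of another, since probes differ in length and labelling. Of the 53 members, 33 had a mean z above 0. The labelled tissue could be checked only thinly, because 2 of 20 listed markers of cortical neurons, 4 of 11 of astrocytes, 2 of 13 of oligodendrocytes and 4 of 13 of microglia were among the named probes.

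The feature that ribosomal protein messages are known for can be read at the annotated starts of the members. RefSeq promoter sequences on GRCm38.p6 held 52 starts for 43 of the 53 members. A start at a C followed by at least 4 further pyrimidines was found at 7 of the 52 member starts (13.5%) and at 823 of 32851 starts of all genes (2.51%). The 7 member starts that carry such a tract follow, with 15 bases before and 15 bases from the start on. They are written 5′ to 3′ on the gene's strand, with the tract within that window in capitals.
Rps6 (chr4:86857353-86857382, minus strand): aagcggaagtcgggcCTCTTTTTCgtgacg
Rps10 (chr17:27635230-27635259, minus strand): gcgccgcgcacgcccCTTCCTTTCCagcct
Rps21 (chr2:180257364-180257393, plus strand): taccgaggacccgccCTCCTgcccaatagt
Rpl35 (chr2:39005117-39005146, minus strand): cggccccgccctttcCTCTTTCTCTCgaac
Rpl35a (chr16:33056467-33056496, plus strand): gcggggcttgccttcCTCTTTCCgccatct
Rpl38 (chr11:114668565-114668594, plus strand): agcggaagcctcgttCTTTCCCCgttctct
Rplp2 (chr7:141447636-141447665, plus strand): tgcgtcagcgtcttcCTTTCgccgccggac
The tract ran for 11 bases at Rpl35, 10 at Rps10, 9 at Rps6, 8 at Rpl35a and Rpl38, and 5 at Rps21 and Rplp2. For Rpl38 and Rpl35a the start shown is not the outermost annotated one. CGGAAG, the core that factors of the ETS family bind, was found on either strand in 59.6% of the 52 member windows of 300 bases and in 16.9% of all such windows. These are matches of letters in a window, and no match says only that those letters are not there. The 7 genes spanned both signs in every comparison below, with differences between CR and AL over 3 ages from -0.02 (Rpl35a) to 0.05 (Rpl35).

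One feature of the arrays moved the members more than any age or diet. The labels number the arrays, and numbers 46 to 67 stood apart from numbers 1 to 45. Of the variance between arrays, 48.1% lay on the first principal component, for which the array set gave an R2 of 0.945 and the age, diet and sex group 0.056. The shift between the sets passed the threshold of an adjusted p of 0.05 for 47 of 53 members, 31 higher and 16 lower in the later set, against 6579 of all 8448 probes (77.9%). Rpl13a, a large subunit protein, ranged from -0.24 to 0.15 on the 45 earlier arrays and from -1 to -0.55 on the 22 later ones. Rps19, a small subunit protein needed to mature 18S ribosomal RNA, ranged from -1.07 to -0.42 and from -0.40 to -0.04. For both genes the sets did not overlap, while AL and CR mice lay mixed within each set. Rpl32 gave the largest shift upward, 0.56, against -0.78 for Rpl13a, and Rpl6 (-0.01) and Rplp0 (0.04) hardly moved. The median size of the shift was 0.30 over the members and 0.224 over all probes, while the median size of a member's difference was at most 0.098 in the comparisons of age, diet and sex. Every comparison below was therefore fitted with the array set as a term, and group values are given after the fitted shift was taken off the later arrays. The set could not be compared within the mice of 17-21 days, because none of their 5 arrays is in the later set. Each other age and diet group had 2 to 4 arrays there, so values within the later set rest on few mice.

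**Figure D1:**
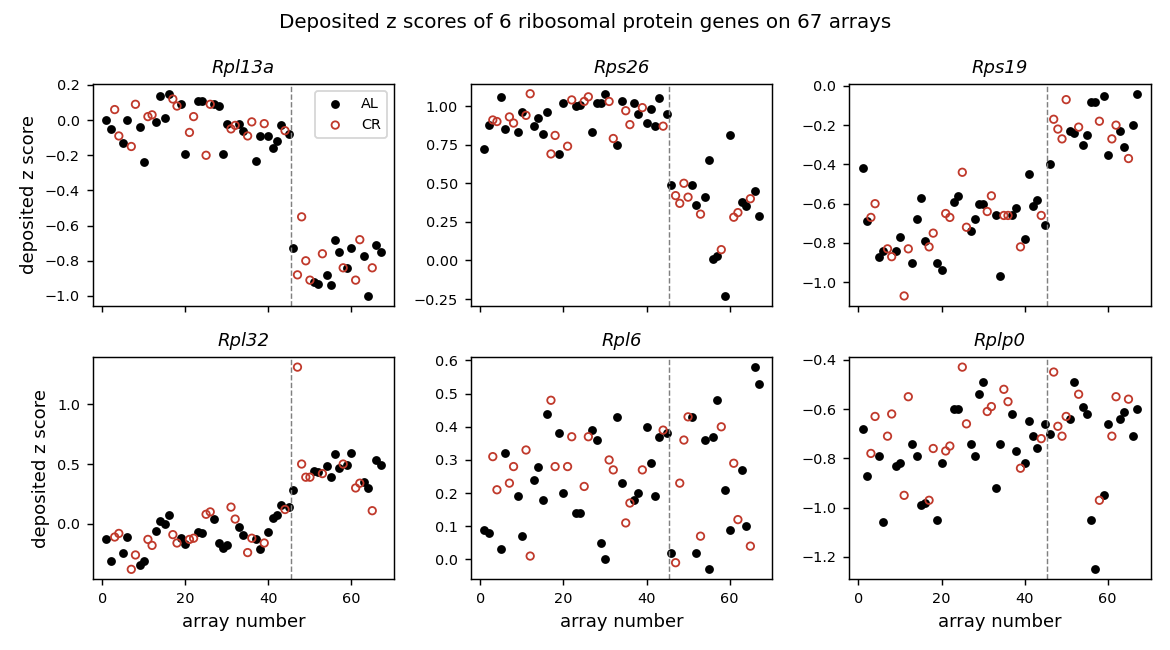
Deposited z score (vertical axes, not adjusted) of 6 ribosomal protein genes against the array number in the labels, with AL mice as filled black and CR mice as open red points, and a dashed line between arrays 45 and 46. Rpl13a, Rps26 and Rpl32 step at the line, Rps19 steps upward, Rpl6 and Rplp0 do not, and AL and CR points are mixed on both sides.

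Of the arrays, 2 were near copies of each other. Replicate 2 of the 16 months AL males and replicate 2 of the 16 months AL females correlated at 0.99975 over all probes, against 0.989 for the next closest pair, and 4312 probes held the same value in both. Of the members, 25 were identical and the largest difference was 0.09. In group values the pair was averaged and counted as 1 array, so 16 months AL has n = 9. The fits kept both arrays, so SEs, intervals and p values that involve 16 months AL or the sexes count the pair as 2 mice. Values without both arrays are given for Rpl22l1 in AL mice and for Rpl19 at 16 months.

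Taken as 1 median per array, the family had group means from 0.10 to 0.17, with SDs from 0.02 to 0.06. The median z over the 53 members, taken on each array after the set shift was removed, was 0.12 ± 0.02 (SD, n = 5) at 17-21 days and 0.17 ± 0.05 (n = 5) at 33-44 days. In AL mice it was 0.12 ± 0.05 (n = 10) at 6 months, 0.14 ± 0.06 (n = 9) at 16 months and 0.13 ± 0.04 (n = 10) at 24 months. In CR mice it was 0.16 ± 0.05 (n = 9), 0.15 ± 0.03 (n = 10) and 0.10 ± 0.06 (n = 8). The ranges of all 8 groups overlapped. The 24 months CR group was the lowest, with a median of 0.08 and a range from 0.05 to 0.21.

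**Figure D2:**
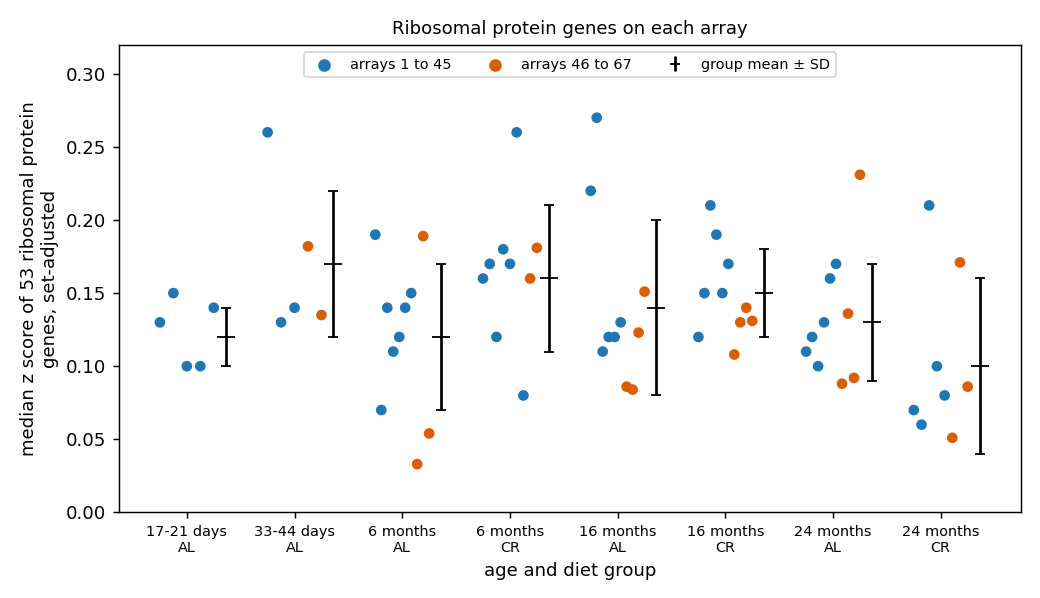
Median z score of the 53 ribosomal protein genes on each array (points, set-adjusted, vertical axis) by age and diet group (horizontal axis), with arrays 1 to 45 in blue and 46 to 67 in orange, and the group mean ± SD in black, in which the near-identical pair of 16 months AL counts once. All groups overlap, with means from 0.10 to 0.17.

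No member passed the adjusted threshold in any of the 15 comparisons between ages, diets and sexes. The counts below therefore also give the members with an unadjusted p under 0.05 in limma, beside the share of all probes that did so. Genes are named because they had the smallest p values of the members in that comparison or because their role was listed, and none of the differences named passed the test.

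Between 17-21 and 33-44 days, the step from about the age of weaning to adolescence, 0 of 53 members passed, against 70 of 8448 probes (0.829%). Unadjusted, 0 members were higher (3.28% of all probes) and 3 were lower (9.19%). The difference was above 0 for 31 of 53 members (52.7% of all probes), with a median of 0.026, and ran from -0.27 (Rplp0) to 0.29 (Rpl23). Rpl24, which forms a bridge between the subunits, had values of 0.29, 0.31, 0.38, 0.51 and 0.54 at 17-21 days and -0.04, 0.02, 0.27, 0.27 and 0.32 at 33-44 days. Of the 5 older mice, 4 lay below every younger mouse and 1 within their range. The 2 lowest, -0.04 and 0.02, are the only later-set arrays of the group, and their deposited values before the set shift was taken off were 0.22 and 0.28. Its difference was -0.25 ± 0.07 (SE), with the smallest adjusted p of the family, 0.079. It was -0.13 on arrays 1 to 45, and it came to 0.01 once the mean of neighbouring spots on the filter was taken off. Rplp0, the base of the stalk on which translation factors act and a common reference gene, had values of -0.98, -0.87, -0.71, -0.54 and -0.49 at 17-21 days and -1.29, -1.09, -0.99, -0.76 and -0.68 at 33-44 days. The groups overlapped, and the difference was -0.27 ± 0.10 (adjusted p = 0.21), or -0.08 with neighbours taken off and -0.09 on arrays 1 to 45. The call of both genes turned on single mice. Without 33-44 days female replicate 1, Rpl24 (-0.33, adjusted p = 0.0125) and Rplp0 (-0.41, adjusted p = 0.0206) passed, with 474 of all probes (5.61%). Rpl24 also passed without 33-44 days male replicate 2 (adjusted p = 0.0226), where 2 members and 391 of all probes (4.63%) did, and without 17-21 days female replicate 2 (adjusted p = 0.0341), where 1 member and 261 of all probes (3.09%) did.

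The next members by p were Rpl38, mutated in the Tail-short mouse, at -0.20 ± 0.09, Rps26 of the messenger RNA exit channel at -0.18 ± 0.09, and Rpl6 at 0.18 ± 0.09. For Rpl38 the mean over its probes gave 0.00, and for Rps26 the value was -0.43 when the array set was not fitted and -0.05 on arrays 1 to 45. Of the markers of other cells, 3 passed in this comparison, all lower at 33-44 days: the red cell genes Hbb-y (-0.38 ± 0.08, adjusted p = 0.0128) and Slc4a1 (-0.37 ± 0.10, adjusted p = 0.0485), of 6 blood markers measured, and Gpr37 (-0.39 ± 0.10, adjusted p = 0.0485), 1 of 2 oligodendrocyte markers. The median difference was -0.055 over the 6 blood markers, of which 3 were higher at 33-44 days. It was -0.17 over the 2 oligodendrocyte markers, of which 1 was higher and 0 had a mean z above 0. Medians were also below 0 for 4 astrocyte (-0.113), 4 microglia (-0.125), 5 meninges and choroid plexus (-0.175) and 2 vessel markers (-0.044). They were above 0 for 2 cortical neuron markers (0.015) and 1 striatal marker (0.084). In any comparison, 0 other listed markers of neurons, glia, vessels or meninges passed. The part of these cells in the differences of Rpl24 and Rplp0 was not tested.

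From 33-44 days to 6 months, 0 of 53 members and 0 of 8448 probes (0%) passed. Unadjusted, 2 members were higher (5.22% of all probes) and 4 were lower (3.75%), 23 of 53 differences were above 0 (51.3% of all probes), and the median was -0.004. Rps19 had values of -0.59, -0.59, -0.58, -0.57 and -0.42 at 33-44 days and a range from -0.97 over a median of -0.86 to -0.56 in the 10 AL mice of 6 months. The groups overlapped between -0.59 and -0.56, and the difference was -0.27 ± 0.07 (adjusted p = 0.129), or -0.31 and -0.13 within the earlier and the later array set. Rpl23, which also binds the p53 regulator Mdm2, had values of 0.14, 0.15, 0.32, 0.42 and 2.12 at 33-44 days and ranged from -0.04 to 0.39 at 6 months. Its difference of -0.40 ± 0.13 (adjusted p = 0.261) rested on 1 mouse: it was -0.08 without 33-44 days male replicate 1. Rps14, a small subunit protein, gave -0.23 ± 0.09 (adjusted p = 0.382), or -0.08 without 33-44 days male replicate 1, Rpl24 gave 0.15 ± 0.06 and Rpl37a gave -0.18 ± 0.08. Without 33-44 days male replicate 2, 3 members passed, with 273 of all probes (3.23%): Rps19 at -0.28 (adjusted p = 0.0171), Rpl23 at -0.59 (adjusted p = 0.00621) and Rps14 at -0.35 (adjusted p = 0.0155). That fit kept male replicate 1, which held the highest 33-44 days value of all 3 genes. In the fit with all mice, the other probe of Rps14 gave 0.08 against -0.23.

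**Figure D3:**
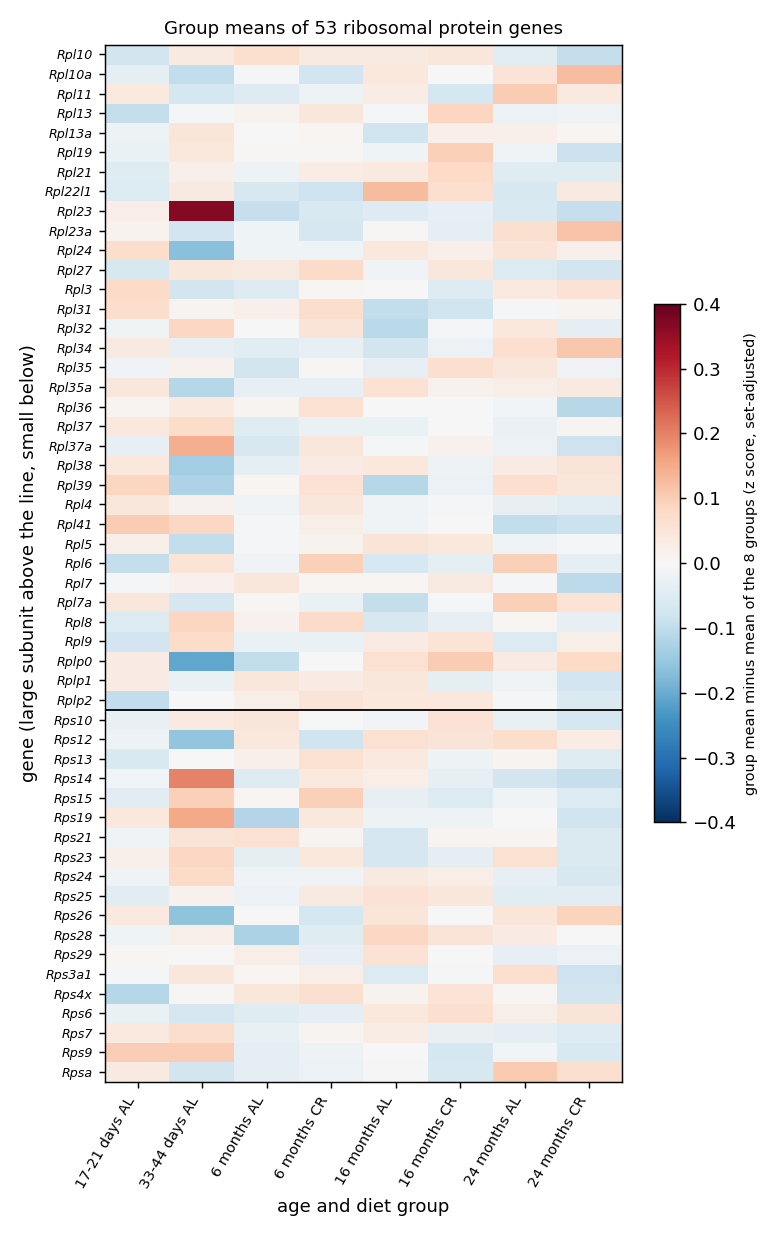
Heat map of the set-adjusted group mean of each gene minus its mean over the 8 age and diet groups (colour scale in z score, red higher, blue lower), with the 34 large subunit genes above the line and the 19 small subunit genes below. The strongest cells lie at 33-44 days, in Rpl23 (1 mouse at 2.12), Rps14 and Rplp0, and the adult columns are pale, with most small subunit genes blue at 24 months CR.

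Among adult AL mice, 0 of 53 members and 0 of 8448 probes (0%) passed between 6 and 16 months, between 16 and 24 months, and between 6 and 24 months. Over the longest span, 24 minus 6 months, the unadjusted counts were 2 members higher (2.25% of all probes) and 0 lower (3.23%), 28 of 53 differences were above 0 (49.8% of all probes), and the median was 0.019. Differences ran from -0.12 (Rpl10) to 0.16 (Rps28), and the 95% interval reached 0.13 to either side at the median member. The interval lay within 0.3 of 0 for 51 of the 53 members and within 0.5 for all 53. Rpl35 ranged from 0.07 over a median of 0.37 to 0.51 at 6 months and from 0.35 over 0.46 to 0.58 at 24 months. These ranges overlapped, and its difference of 0.12 ± 0.05 had an adjusted p of 0.855. The other probes of Rpl35 gave 0.01 and 0.02. Rps19 (0.12 ± 0.05), Rpsa (0.14 ± 0.07), Rplp0 (0.13 ± 0.07) and Rpl6 (0.11 ± 0.06) had the next smallest p values.

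From 6 to 16 months, the unadjusted counts were 4 members higher (4.1% of all probes) and 1 lower (3.33%), with 31 of 53 differences above 0 (50.3% of all probes) and a median of 0.020. The only member lower was Rps21, which ranged from 0.68 over 0.83 to 1.00 at 6 months and from 0.61 over 0.68 to 0.79 at 16 months. Its difference was -0.13 ± 0.05 (adjusted p = 0.633), and -0.12 and -0.15 within the array sets. Rps28, which lines the exit channel of the messenger RNA, gave 0.23 ± 0.09, and Rplp0 gave 0.17 ± 0.07, both higher within each array set (0.21 and 0.31; 0.16 and 0.22). Rpl22l1, the paralogue of Rpl22, gave 0.30 ± 0.14 (adjusted p = 0.653), which was 0.03 without the near-identical pair. Its 16 months AL values ran from -0.36 over a median of -0.23 to 1.02, the last being the mean of that pair. Rps19, the remaining higher member, gave 0.09 to 0.14 when 1 mouse was left out, but -0.04 on arrays 46 to 67 alone.

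From 16 to 24 months, the unadjusted counts were 4 members higher (5.97% of all probes) and 1 lower (7.04%), with 25 of 53 differences above 0 (48.2% of all probes) and a median of -0.005. Rpl6, which ranged from 0.03 over 0.18 to 0.44 at 16 months and from -0.02 over 0.36 to 0.59 at 24 months, had the smallest p. The groups overlapped over most of their range, and the difference was 0.17 ± 0.06 (adjusted p = 0.224), with 0.17 and 0.16 within the array sets. Rpl7a gave 0.19 ± 0.08, but -0.04 with neighbouring spots taken off. Rps3a1, which lies near the platform where messenger RNA leaves the small subunit, gave 0.12 ± 0.05, but -0.01 as the mean of its 3 probes. Rps23, a protein of the decoding centre, gave 0.12 ± 0.06, with 0.17 and 0.04 within the array sets. Rpl22l1 was the 1 lower member, at -0.30 ± 0.14, and came to -0.04 without the near-identical pair.

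The listed roles showed no larger movement. The stalk proteins Rplp1 and Rplp2 gave -0.06 ± 0.05 and -0.03 ± 0.08 between 6 and 24 months on AL, beside 0.13 for Rplp0. Rpl5 and Rpl11, which carry 5S ribosomal RNA and bind Mdm2 when ribosome assembly fails, gave -0.01 ± 0.05 and 0.15 ± 0.08. Rpl3, Rpl10 and Rpl39, each of which has a tissue-restricted paralogue, gave 0.09 ± 0.08, -0.12 ± 0.07 and 0.07 ± 0.11. Rps6, the target of the S6 kinases, ranged from 0.07 to 0.71 at 6 months and from 0.09 to 0.60 at 24 months, a difference of 0.07 ± 0.07.

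On CR, 0 of 53 members and 0 of 8448 probes (0%) passed between 6 and 16 months, and likewise between 16 and 24 months. From 6 to 16 months the unadjusted counts were 0 members higher (3.41% of all probes) and 2 lower (3.92%), with a median of 0.005 and 27 of 53 differences above 0 (50.8% of all probes). Rps15 (-0.15 ± 0.07, adjusted p = 0.638) and Rpl6 (-0.14 ± 0.06) were the lower members. Rpl31 (-0.14 ± 0.08), Rpl8 (-0.10 ± 0.06) and Rps12 (0.11 ± 0.08) followed. From 16 to 24 months, 0 members were higher (4.45%) and 5 were lower (4.82%). In that comparison 37 of 53 differences were below 0 and 16 above (47.2% of all probes above), with a median of -0.021 against -0.007 over all probes. The 5 were Rps10 (-0.15 ± 0.06, adjusted p = 0.499), Rpl19 (-0.17 ± 0.07), Rpl7 (-0.16 ± 0.07), Rpl36 (-0.11 ± 0.06) and Rpl27 (-0.12 ± 0.06). Rpl19 ranged from 0.05 over 0.24 to 0.78 at 16 months CR and from -0.13 over 0.15 to 0.29 at 24 months CR, so most of both groups overlapped. All 5 were lower within each array set, which is no separate test, because they were picked by p in the fit over both sets. With neighbouring spots taken off, Rps10 came to 0.00, Rpl19 to -0.02, Rpl7 and Rpl36 to -0.01 and Rpl27 to -0.09. The difference between the diets in this step was itself tested, and 0 of 53 members and 0 of 8448 probes (0%) passed. Unadjusted, 0 members were higher (1.29%) and 2 lower (1.33%), namely Rps3a1 (-0.19 ± 0.08) and Rpl35 (-0.17 ± 0.07). Rpl19 (-0.20 ± 0.10), Rps21 (-0.14 ± 0.07) and Rps10 (-0.14 ± 0.08) came next.

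The comparison of diets asked whether CR, a regime known to act on nutrient signalling, moved the family at a given age. At 6 months, 0 of 53 members and 0 of 8448 probes (0%) passed. Unadjusted, 1 member was higher on CR (0.687% of all probes) and 0 were lower (0.769%), and 38 of 53 differences were above 0 (51.2% of all probes), with a median of 0.027. The 1 member was Rps19, which ranged from -0.97 over -0.86 to -0.56 on AL and from -0.82 over -0.66 to -0.56 on CR. The highest values were the same, while the AL median of -0.86 lay below the lowest CR value of -0.82. The difference was 0.16 ± 0.05 (unadjusted p = 0.00519 in limma, not passing after adjustment), with 0.17 and 0.09 within the array sets. Rpl6 (0.12 ± 0.06), Rpl35 (0.09 ± 0.05), Rpl37a (0.11 ± 0.07) and Rps23 (0.08 ± 0.06) followed.

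At 16 months, 0 of 53 members and 0 of 8448 probes (0%) passed. Unadjusted, 2 members were higher on CR (1.02%) and 0 lower (1.4%), the median was 0.004, and 27 of 53 differences were above 0 (49.4% of all probes). Rpl35 (0.11 ± 0.05, adjusted p = 0.999) ranged from 0.23 to 0.48 on AL and from 0.34 to 0.86 on CR, and Rpl19 gave 0.14 ± 0.07, or 0.08 without the near-identical pair. Rpl13a (0.08 ± 0.05), Rpl11 (-0.13 ± 0.08) and Rps21 (0.08 ± 0.05) followed. The near-identical pair gave the highest Rpl11 value of 16 months AL, -0.16 against a group median of -0.49. The Rpl11 difference ran from -0.17 to -0.09 when 1 mouse was left out. At 24 months, 0 of 53 members and 0 of 8448 probes (0%) passed. Unadjusted, 0 members were higher on CR (1.66%) and 1 lower (1.33%), and 18 of 53 differences were above 0 (48.1% of all probes), 15 of 34 in the large and 3 of 19 in the small subunit, with a median of -0.031. The lower member was Rps3a1, which ranged from 0.14 over 0.27 to 0.43 on AL and from -0.14 over 0.15 to 0.24 on CR. Its ranges overlapped, and the difference was -0.14 ± 0.06 (adjusted p = 0.999), or -0.06 as the mean of its 3 probes. Rpl36 (-0.11 ± 0.06), Rps23 (-0.11 ± 0.06), Rpl6 (-0.11 ± 0.07) and Rpl7 (-0.11 ± 0.07) followed. Rpl36 came to -0.04 without 24 months CR male replicate 1, and Rpl7 to -0.04 without 24 months CR male replicate 2.

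Most members thus lay above 0 at 6 months and below 0 at 24 months in the difference of CR from AL, and the change between these ages was tested as a comparison added after the signs had been seen. In it 0 of 53 members and 0 of 8448 probes (0%) passed. Unadjusted, 0 members were higher (2.04%) and 5 lower (1.47%): Rps19 (-0.23 ± 0.08, adjusted p = 0.996), Rpl6 (-0.23 ± 0.09), Rps23 (-0.19 ± 0.08), Rps3a1 (-0.16 ± 0.08) and Rpl35 (-0.14 ± 0.07). Rps19 came to -0.15 without 24 months CR male replicate 1. The change was below 0 for 41 of 53 members, with a median of -0.049, against 47.6% of all probes above 0 and a median of -0.006. All 5 were below 0 within each array set, with Rps19 at -0.24 and -0.17 and Rpl6 at -0.13 and -0.44. They were picked by p in the fit over both sets, so this shared sign is no separate test. Members share arrays, scaling and filter, so the count of members on 1 side has no test of its own, and the 3 CR males of 24 months were younger than the AL mice they were set against.

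Averaged over 6, 16 and 24 months, 0 of 53 members and 0 of 8448 probes (0%) passed between the diets. Unadjusted, 0 members were higher (0.758%) and 0 lower (0.746%), with differences from -0.06 (Rpl11) to 0.06 (Rplp0), 27 of 53 above 0 (49.9% of all probes) and a median of 0. The 95% interval reached 0.08 to either side at the median member and 0.17 at the widest, Rpl22l1, and lay within 0.3 of 0 for all 53 members. Rpl35 (0.05 ± 0.03), Rplp0 (0.06 ± 0.04), Rplp1 (-0.04 ± 0.03), Rps29 (-0.04 ± 0.03) and Rps12 (-0.05 ± 0.04) had the smallest p values.

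**Figure D4:**
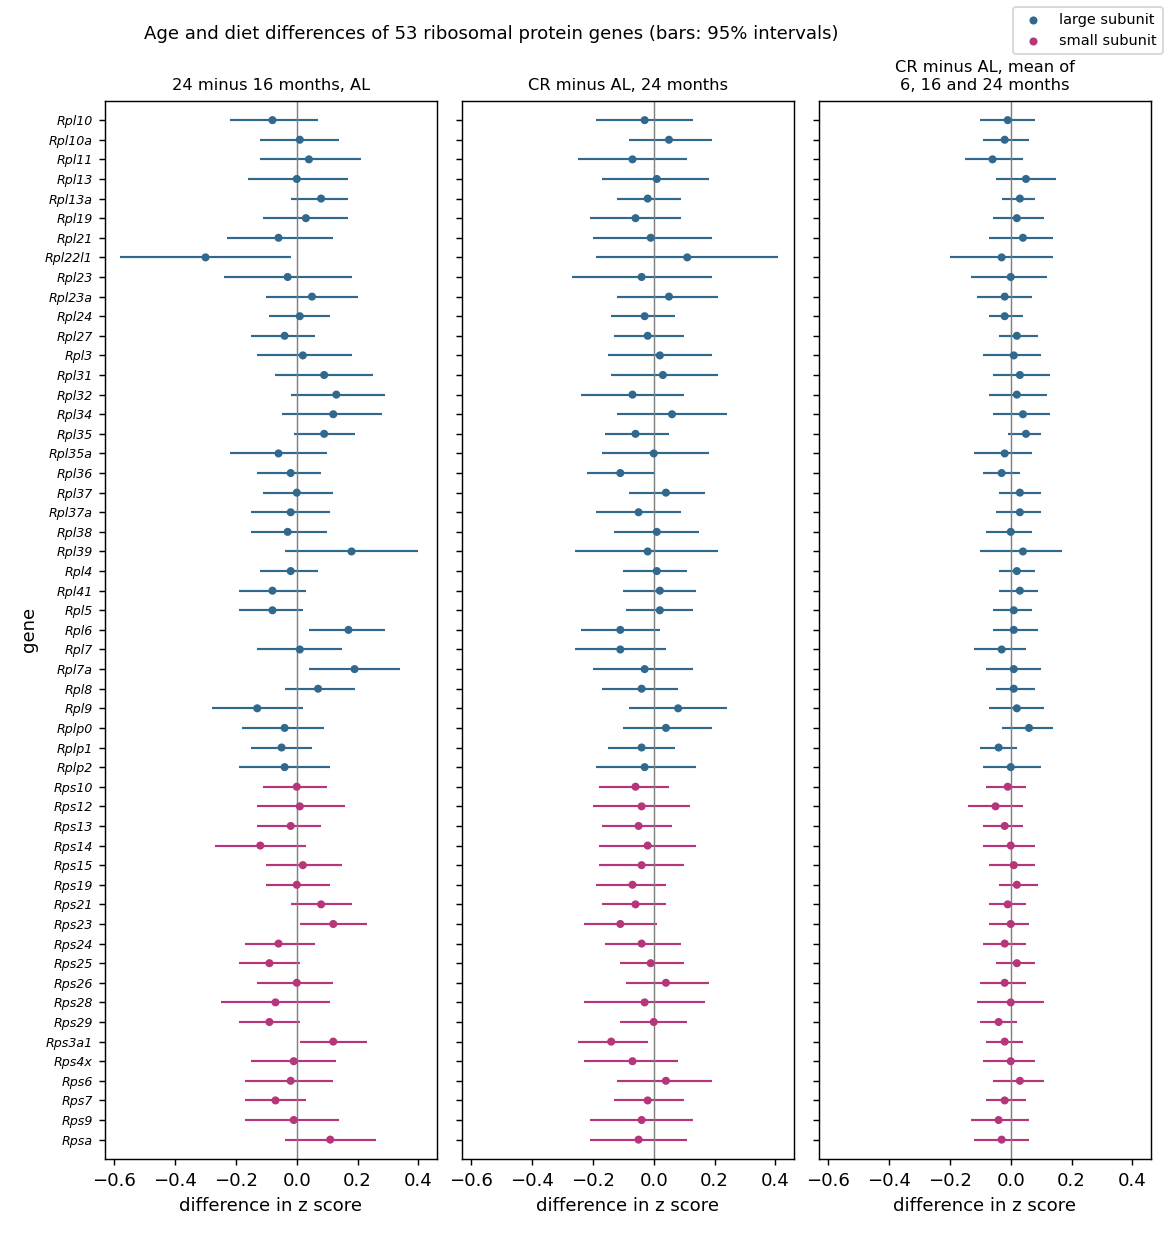
Difference in z score (horizontal axes) with its 95% interval for each of the 53 genes (vertical axis, large subunit in blue, small subunit in magenta): 24 minus 16 months on AL, CR minus AL at 24 months, and CR minus AL over 3 ages. Rpl22l1 has the widest interval in each panel, the points of the right panel lie between -0.06 and 0.06, and 16 of the 19 small subunit points of the middle panel are at or below 0.

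Between females and males, averaged over the 6 adult groups, 0 of 53 members and 0 of 8448 probes (0%) passed. Unadjusted, 0 members were higher in females (1.15%) and 1 lower (1.29%), Rpl6 at -0.09 ± 0.04 (adjusted p = 0.999). The difference was above 0 for 34 of 53 members (51.3% of all probes), with a median of 0.012, and Rpl36 (0.06 ± 0.03), Rps10 (0.06 ± 0.03), Rps14 (0.06 ± 0.04) and Rps26 (0.05 ± 0.04) followed. For the step from 16 to 24 months on AL compared between the sexes, 0 of 53 members and 0 of 8448 probes (0%) passed, and unadjusted 0 members were higher (0.0473%) and 0 lower (0.118%). Intervals were wide there, 0.26 to either side at the median member. Rps19 (0.15 ± 0.10), Rpl11 (0.19 ± 0.16), Rps28 (0.17 ± 0.18), Rps3a1 (0.09 ± 0.11) and Rps10 (-0.09 ± 0.11) had the smallest p values.

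Part of the rule by which the study selected genes was also applied, without its later two-way analysis of variance: a mean above 0 over both conditions, an unadjusted p under 0.05, and a z-ratio (the difference over the SD of the differences of all probes) of at least 1.5 in size. It kept Rpl6 as the 1 member in 24 minus 16 months on AL (higher, with 2.04% of all probes kept), in 16 minus 6 months on CR (lower, 1.09%) and in females minus males (lower, 0.651%). In the other 9 comparisons to which it was applied it kept 0 members, and it was not applied to the 3 comparisons of differences between differences. The share of all probes kept was there 0.663% for 33-44 minus 17-21 days, 0.639% for 6 months minus 33-44 days, 0.414% for 16 minus 6 months and 1.5% for 24 minus 6 months on AL, and 1.29% for 24 minus 16 months on CR. For CR minus AL it was 0.343% at 6 months, 0.118% at 16 months, 0.485% at 24 months and 0.355% over the 3 ages. This rule adjusts for neither the number of probes nor the array set.

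Genes that build or steer the ribosome gave no calls either. Fau, a small subunit protein that is made as a fusion, was the only 1 of 4 ribosomal protein genes under other symbols to be measured. It gave 0.06 between 16 and 24 months on AL and -0.02 between 17-21 and 33-44 days. Its largest difference was -0.124 between 6 and 16 months on CR. Only there was its unadjusted p under 0.05, as for 3.92% of all probes that were lower. Of 102 listed ribosome biogenesis and nucleolar factors, 37 were measured and 0 passed in any comparison. Unadjusted, 2 were higher (5.97% of all probes) and 6 lower (7.04%) between 16 and 24 months on AL, with a median of 0.009. The other 14 comparisons gave 0 to 4 higher (0.0473% to 5.22% of all probes) and 0 to 4 lower (0.118% to 9.19%). The change of the diet difference between 6 and 24 months gave 4 of 37 higher (2.04% of all probes) and 0 lower (1.47%), with a median of 0.008. Of 19 listed genes of RNA polymerase I, which makes ribosomal RNA, 6 were measured and 0 passed. Between 16 and 24 months on AL, Taf1d (0.11 ± 0.09) and Ttf1 (-0.10 ± 0.07) were smallest in p. Of 37 listed genes of mTOR and S6 kinase signalling, 10 were measured and 0 passed. Between 16 and 24 months on AL, the S6 kinase family gene Rps6ka5 gave -0.10 ± 0.05 and Rps6ka3 gave 0.11 ± 0.07. Larp1, which binds the pyrimidine tract of these messages, gave 0.19 ± 0.10 between 17-21 and 33-44 days. In that younger comparison, 8 of the 10 differences were above 0 (52.7% of all probes), with a median of 0.076. Unadjusted, 1 of the 10 was higher (3.28% of all probes) and 0 were lower (9.19%). Of 15 listed chaperones and rescue factors of the ribosome, 4 were measured and 0 passed, with Zfp598, a sensor of collided ribosomes, at 0.12 ± 0.07 between 16 and 24 months on AL.

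Members showed little common variation from mouse to mouse. As a description over 67 arrays that share scaling and filter, the deviations from group and array set means correlated at a mean r of 0.0265 over 1378 pairs of members, of which 52% were above 0. Pairs of all probes with a mean z above 0 gave 0.00893. The mean was 0.0323 within the large subunit, 0.0304 within the small and 0.0204 between them. Position on the filter, inferred from the probe numbers as 16 blocks of 24 rows and 22 columns, went with higher values: 12 member pairs within 2 rows and 2 columns of each other gave a mean r of 0.591, and the 1366 others 0.0215. The closest pair was Rpl23a with Rpsa (r = 0.91), which lie in different blocks, and it fell to 0.15 once neighbouring spots were taken off. Rpl31 with Rpl39 (r = 0.90) kept 0.87.

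Probes for the same gene showed the same dependence. The 24 members with more than 1 probe gave 68 pairs of probes, with a mean r of 0.198 and a range from -0.686 to 0.896. The 15 pairs within 2 rows and 2 columns had a mean of 0.649 and were all above 0, and the 53 pairs farther apart had a mean of 0.07, of which 62.3% were above 0. The nearby probes of Rpl31 (0.90), Rpl7a (0.75) and Rpl6 (0.66) moved together, whereas the distant probes of Rpl38 correlated at -0.52 and those of Rpl22l1 at -0.15. For Rpl7, 1 distant pair correlated at -0.69. Between 16 and 24 months on AL, the other, nearby probe of Rpl6 gave 0.06 against 0.17, and that of Rpl7a gave 0.13 against 0.19. Rps19 has no other probe.

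**Figure D5:**
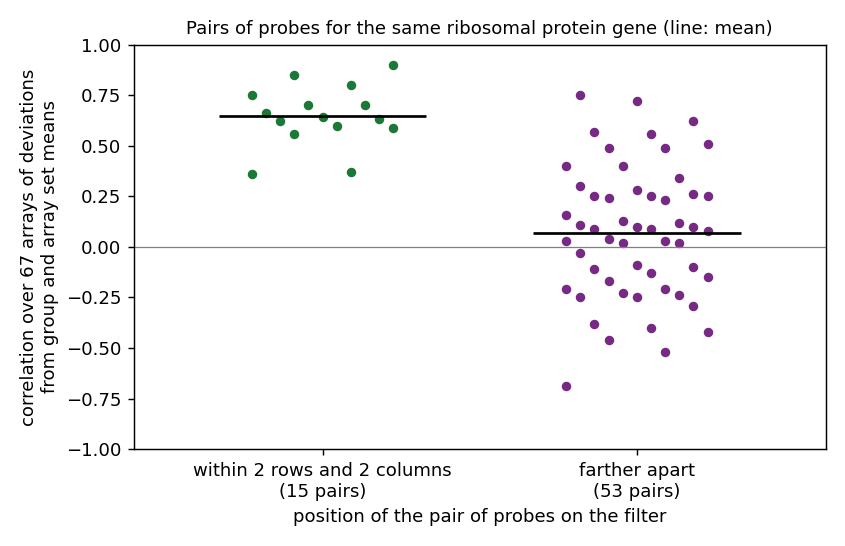
Correlation over 67 arrays of deviations from group and array set means (vertical axis) for pairs of probes of the same ribosomal protein gene, by whether they lie within 2 rows and 2 columns on the inferred filter layout (15 pairs) or farther apart (53 pairs), with the mean as a line. Nearby pairs lie between 0.365 and 0.896 (mean 0.649), and distant pairs spread to both sides of 0 (mean 0.07).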

How the data were processed

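The deposited values are z scores made by the authors from scanned filter intensities, with every array brought to mean 0 and SD 1. Log base and background treatment were not given in the sources used here. There were 8448 probes on 67 arrays, and 1 value was missing. Probe names came from the platform annotation (4875 probes with 1 symbol, 224 with several, 3349 with none). The members, gene lists and tests were chosen with earlier results of these data known. With limma 3.58.1 in R 4.3.3, a mean for each of 16 groups of 2 to 5 arrays and an array set term (numbers 1 to 45 against 46 to 67) were fitted on all arrays, and moderated two-sided p values were adjusted by Benjamini-Hochberg over all probes (threshold 0.05). Comparisons weighted the sexes equally. Named were the members that passed or, where fewer than 5 passed, the 5 with the smallest p, and those with a listed role. Arrays carry no read depth; their number limits the precision. Code was tested on simulated data. Alternatives are given in the closing section.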

Additional observations from a re-analysis of the deposited data

Results flagged for a closer look

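Among the 74 sets of group values of the named genes, 7 held a mouse whose gap to the nearest other value was large for the range of its group, and about 1 in 20 sets is marked in this way by chance. At 17-21 days AL, Rpl38 was 0.06 in female replicate 2 and 0.31 to 0.33 in the others. At 33-44 days AL, male replicate 1 was apart for both Rps19 (-0.42, others -0.59 to -0.57) and Rpl23 (2.12, others 0.14 to 0.42). At 16 months AL, Rpl22l1 was 1.02 as the mean of the near-identical male and female replicates 2, and -0.36 to -0.09 in the others. At 16 months CR, Rpl35 was 0.86 in male replicate 4 and 0.34 to 0.55 in the others. At 24 months AL, Rpl7 was 0.24 in female replicate 5 and -0.04 to 0.08 in the others. At 24 months CR, Rps3a1 was -0.14 in female replicate 1 and 0.09 to 0.24 in the others.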

How the results depend on the processing

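The count of 0 members held in 11 alternative settings over the 15 comparisons, except that arrays 46 to 67 alone gave no value for 33-44 minus 17-21 days, because mice of 17-21 days have no array in that set. The part of the study's selection rule applied here (unadjusted p with a z-ratio of 1.5) kept 1 member, Rpl6, in 24 minus 16 months AL (2.04% of probes), 16 minus 6 months CR (1.09%) and the sexes (0.651%). Leaving out 1 mouse gave 0 to 2 members between 17-21 and 33-44 days and 0 to 3 from 33-44 days to 6 months, beside 0 to 474 and 0 to 273 of all probes. In the latter the median of the members was -0.07 on arrays 46 to 67 alone and ran from -0.062 to 0.005 without 1 mouse. Of 75 named differences, 8 of 794 values changed sign, and 30 differences were over 1.5 times smaller without 1 mouse. With neighbouring spots taken off, Rpl24 came to 0.01 (17-21 to 33-44 days), Rpl7a to -0.04 (16 to 24 months AL) and Rps10 to 0.00 (16 to 24 months CR). As a mean of all its probes, Rps3a1 came to -0.01 (16 to 24 months AL). On arrays 46 to 67 alone, Rpl22l1 (-0.02) and Rps19 (-0.04) turned between 6 and 16 months AL, Rps21 (0.06) in the diet by age and Rps10 (0.06) in the sex by age comparison. Apart from the subtraction of neighbours and the averaging of probes, the cause was not tested. The replicate numbers follow the order of the samples and pair no mice; with a replicate block of 5 runs of array numbers beside the array set, 0 members passed in any comparison and the medians ran from -0.046 to 0.03.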
